A study of Mus musculus with 4 samples.

Results

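Imprinted genes are transcribed mainly from the copy inherited from 1 parent, and many of them set how far a tissue grows. The 10 described here are H19, Igf2, Igf2r, Cdkn1c, Plagl1, Mest, Peg3, Peg10, Grb10 and Sgce, of 21367 mouse genes that could be named on the arrays. They were chosen as imprinted growth genes outside the Dlk1-Meg3 cluster, and every probe whose RefSeq accession maps to 1 of them was taken, which gave 17 of 55679 probes. The choice did not use the measured values, although results of these data were known when it was made. H19, Igf2, Igf2r, Cdkn1c, Grb10 and Sgce had a single probe each, whereas Plagl1 had 4 probes, Mest 3, and Peg3 and Peg10 2 each.

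Expression was measured in vascular smooth muscle cells cultured at passages 12 to 16 from mouse aortas on the C57BL/6J background. The 4 groups, with 1 array each, were L2AKO LDL, L2AKO control, WT LDL and WT control. L2AKO cells came from LAMP-2AKO mice, which lack the lysosomal receptor of chaperone-mediated autophagy, and WT cells came from wild-type mice. All 4 were held for 24 h in DMEM with 5% lipoprotein-deficient serum. The LDL groups also received LDL at 150 µg/ml of LDL-cholesterol and bovine lipoprotein lipase at 0.1 U/ml, and the labels do not say whether the control groups received lipase too. RNA of a triplicate was pooled before labelling, so a group was 1 sample with no measure of its spread, and differences carry no p-value. A difference is therefore between 4 pools of RNA, and cells of another type, fewer expressing cells and less RNA per cell cannot be told apart in them.

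Values are log2 of the processed spot signal minus the array's 75th percentile, so 0 stands for the signal that 75% of probes fall below. That percentile was 434 for L2AKO LDL, 389 for L2AKO control, 371 for WT LDL and 319 for WT control, and 47.2% to 52.0% of probes were well above background. A 2-fold difference, 1 log2 unit, was used to count genes. A probe not well above background has only a bound, written "at least". It is taken against the lowest signal well above background on that array, or the probe's own reading where that is higher. The second case held for Cdkn1c on L2AKO control, which read -4.26 against a lowest signal of -4.45. A probe can thus read above that lowest signal without being well above background, so "at least" is a convention and not a strict limit. The L2AKO LDL array lay on a different slide from the other 3, and 7 of 8 spike-in controls lay outside the range of those 3 on it. In each comparison that involves L2AKO LDL, the effect of slide cannot be told apart from that of the group. Of 2 Lamp2 probes, the brighter had 6.09, 6.33, 6.38 and 6.29 on L2AKO LDL, L2AKO control, WT LDL and WT control, and the other had 2.41, 2.30, 3.74 and 3.68. The brighter probe did not separate the genotypes and the other was lower on both L2AKO arrays, and whether either lies in the deleted stretch was not determined. Of 8 smooth muscle markers 5 were above background on all 4 arrays, while Myh11, Myocd and Lmod1 were below it on all 4.

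An imprinted domain carries a control region whose DNA is methylated on the copy from 1 parent, and this mark decides which copy is read. H19 and Igf2 are the best known pair, because they share enhancers that reach the untranslated RNA H19 on the maternal copy and the growth factor gene Igf2 on the paternal copy. Growth-promoting members tend to be paternally expressed and growth-restraining members maternally expressed. Igf2, Plagl1, Mest, Peg3, Peg10 and Sgce belong to the paternal class, and H19, Igf2r, Cdkn1c and Grb10 to the maternal class, with Grb10 paternal in neurons. The arrays measured total RNA and cannot tell the copies apart.

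H19, Igf2 and Mest are also hosts of microRNAs, shown here because these genes are among the members that differed most and the microRNAs are made from their transcripts. The mature sequences are from RefSeq (GRCm38.p6), 5′ to 3′, with the seed, bases 2 to 8, in capitals. The H19 pair lies on the minus strand at chr7:142577112-142577133 and chr7:142577078-142577099, the Igf2 pair on the minus strand at chr7:142654968-142654989 and chr7:142654932-142654952, and the Mest pair on the plus strand at chr6:30741314-30741336 and chr6:30741354-30741375. All 6 seeds differ from each other, and levels of the microRNAs were not analysed here.
mmu-miR-675-5p: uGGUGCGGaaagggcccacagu
mmu-miR-675-3p: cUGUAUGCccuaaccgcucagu
mmu-miR-483-5p: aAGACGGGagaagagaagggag
mmu-miR-483-3p: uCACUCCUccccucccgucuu
mmu-miR-335-5p: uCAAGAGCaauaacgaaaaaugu
mmu-miR-335-3p: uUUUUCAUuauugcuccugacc

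Of the 10 genes, 5 were above background on all 4 arrays, namely H19, Igf2r, Plagl1, Mest and Sgce. Igf2, Cdkn1c and Grb10 were above background on some arrays and not on others, and the split followed genotype apart from 1 dim reading each of Cdkn1c and Grb10. Peg3 and Peg10 were not above background on any array by any of their probes. L2AKO and WT cells differed widely in 4 of the genes: Igf2, Cdkn1c and H19 were lower in L2AKO cells, and Grb10 was higher. Over all measured genes, 7.56% were at least 2-fold higher in L2AKO cells without LDL and 8.21% lower. With LDL these shares were 8.29% and 10.4%. The shares leave out genes with bounds, such as Igf2. Differences with LDL were smaller, and the only 2-fold response by the brightest probe of a gene was that of Mest in WT cells.

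**Figure D1:**
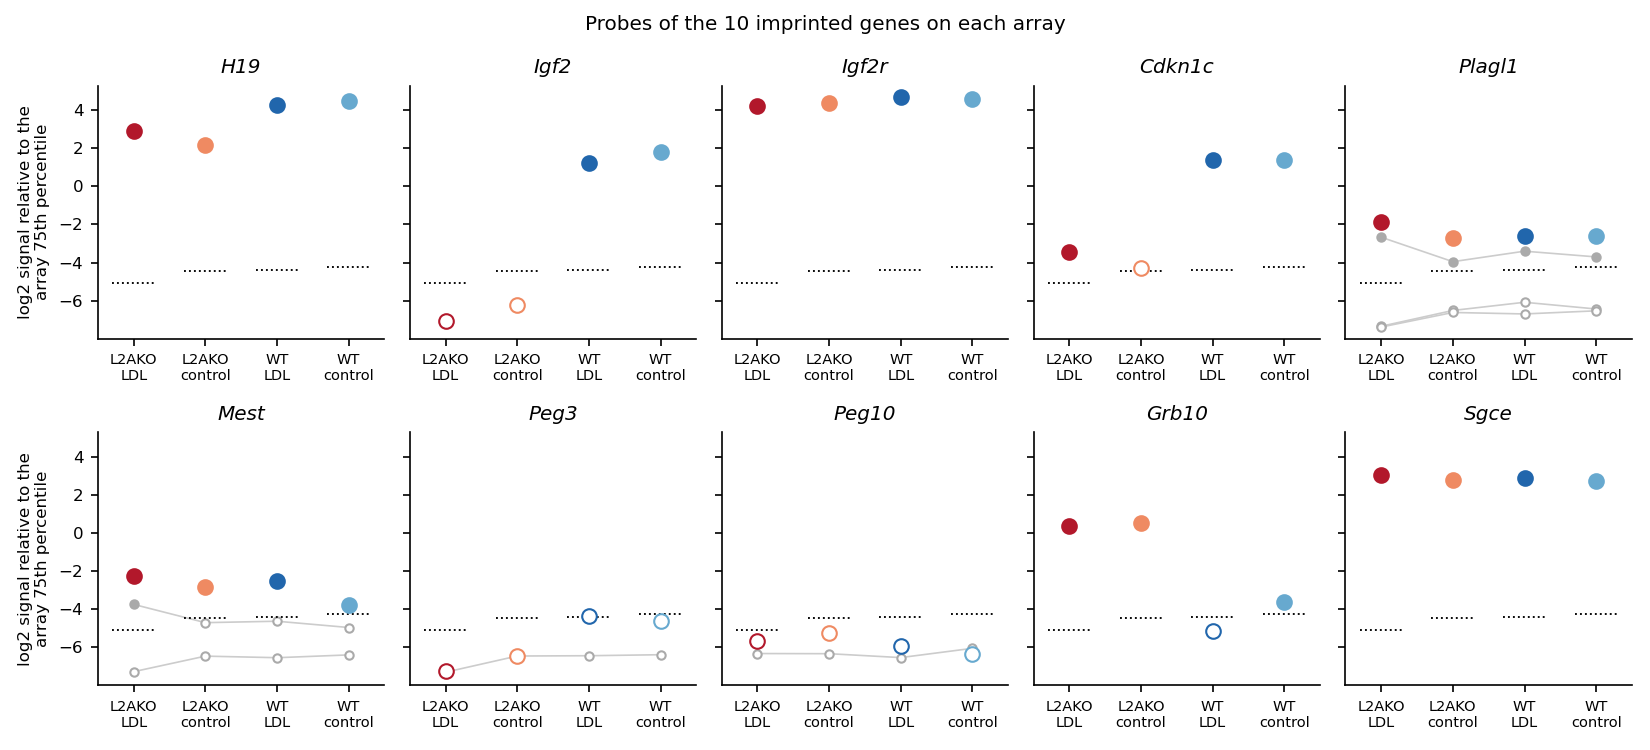
Level of each of the 10 genes on the 4 arrays, with the vertical axis in log2 of the processed signal relative to the array's 75th percentile. Filled points were well above background and open points were not, and small grey points are other probes of the same gene. Igf2 and Cdkn1c sit high on both WT arrays and Grb10 on both L2AKO arrays, whereas Igf2r and Sgce stay level.

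Igf2 encodes insulin-like growth factor 2, a fetal growth factor that signals through the IGF1 and insulin receptors. Its probe read -7.08 in L2AKO LDL and -6.22 in L2AKO control, both not above background, against 1.20 in WT LDL and 1.81 in WT control. In raw signal these were 3.20 and 5.22 on the L2AKO arrays, against 854 and 1118 on the WT arrays. Both L2AKO arrays were dark and both WT arrays bright. The share of all genes with such a split was not computed. Igf2 was at least 76.7-fold lower in L2AKO than in WT cells without LDL, and at least 77.7-fold lower with LDL. The size of both bounds depends on the lowest signal well above background on the L2AKO array, and was not recomputed with other processing. In WT cells its difference with LDL was -0.61, a 1.52-fold lower signal that 2.32% of measured genes exceeded in that direction, and in L2AKO cells LDL could not be compared because both arrays were below background.

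Igf2r encodes the mannose-6-phosphate receptor, which removes IGF2 from the cell surface into lysosomes and also carries new lysosomal enzymes there. Its probe was printed as 10 spots, whose means were 4.19 ± 0.040 in L2AKO LDL, 4.38 ± 0.030 in L2AKO control, 4.66 ± 0.016 in WT LDL and 4.57 ± 0.028 in WT control. These errors are SDs over the 10 spots of 1 array and cover technical spread within an array only. After scaling, the spots of the L2AKO arrays lay below those of the WT arrays. The difference was only -0.19 without LDL, or 0.09 with no scaling between arrays, and -0.47 with LDL. In raw signal the order without LDL was reversed, with L2AKO control spots at 7898 to 8321 and WT control spots at 7279 to 7812. Of genes measured without LDL, 36.0% had a lower value, which places Igf2r within the ordinary range of differences. With LDL the Igf2r signal differed by -0.19 in L2AKO and 0.09 in WT cells.

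Grb10 encodes an adaptor that binds the insulin and IGF1 receptors and dampens their signalling. Its probe read 0.38 in L2AKO LDL and 0.54 in L2AKO control, against -5.17 in WT LDL, not above background, and -3.65 in WT control. The raw signals were 566 and 565 on the L2AKO arrays, against 10.3 and 25.4 on the WT arrays. Grb10 was the mirror image of Igf2, bright on both L2AKO arrays and at or near background on both WT arrays. Without LDL it was 18.2-fold higher in L2AKO than in WT cells (log2 difference 4.19), above the value of 99.8% of measured genes, although the log2 difference was 2.52 after normexp and 2.87 in the authors' deposited table. With LDL it was at least 27.6-fold higher. Its LDL difference was -0.15 in L2AKO cells, and in WT cells it was at least 1.68-fold lower with LDL, between a dim reading and one below background.

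Promoter sequence is shown for Igf2 and Grb10, members with wide genotype gaps in opposite directions that have a promoter entry, because methylation of CG pairs is the mark that imprinting uses. The start with the most CG is shown for each gene, and no window was matched to a control region of imprinting. Each window runs 250 bases before to 50 after a RefSeq start (GRCm38.p6), on the minus strand, with CG in capitals. A CG reads the same on both strands. The Igf2 window chr7:142658755-142659054 has 24 CG, and 20.0% of 32851 mouse promoter windows of this length hold as many. The Grb10 window chr11:12037371-12037670 has 45 CG and 80.0% G and C, and 1.93% of windows hold as many CG, against a median of 7.
Igf2: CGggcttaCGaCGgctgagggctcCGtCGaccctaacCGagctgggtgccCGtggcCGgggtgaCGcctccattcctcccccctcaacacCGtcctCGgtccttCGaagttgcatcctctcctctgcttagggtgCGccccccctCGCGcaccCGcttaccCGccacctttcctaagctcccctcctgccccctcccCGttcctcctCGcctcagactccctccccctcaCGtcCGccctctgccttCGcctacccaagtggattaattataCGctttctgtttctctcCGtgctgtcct
Grb10: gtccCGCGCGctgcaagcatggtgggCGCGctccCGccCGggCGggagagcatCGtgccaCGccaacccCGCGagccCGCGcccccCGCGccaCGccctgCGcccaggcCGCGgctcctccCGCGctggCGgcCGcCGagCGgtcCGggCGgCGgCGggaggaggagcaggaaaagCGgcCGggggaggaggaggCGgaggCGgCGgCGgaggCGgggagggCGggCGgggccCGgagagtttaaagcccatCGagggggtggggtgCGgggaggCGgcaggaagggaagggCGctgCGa
The 3 other Igf2 starts had 7, 14 and 2 CG and the other Grb10 start had 9, so the starts of a gene differ widely in CG. Over the 6 members with an entry, Igf2r had 34 CG at its only start, Plagl1 26 and Peg3 13, and the Mest starts had 8, 17 and 17. Methylation was not measured, and CG content is a property of the sequence and not of these cells.

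H19 yields a long untranslated RNA that is abundant in fetal tissue and falls after birth. It read 2.90 in L2AKO LDL, 2.18 in L2AKO control, 4.27 in WT LDL and 4.46 in WT control. It was well above background on all 4 arrays, with the L2AKO arrays below both WT arrays. The raw signals were 3242 and 1767 in L2AKO cells, against 7127 and 7027 in WT cells. Without LDL, H19 was 4.86-fold lower in L2AKO cells (log2 difference -2.28), and 1.81% of measured genes lay below it. With LDL the gap was 2.57-fold (-1.36), with 6.12% of genes below. With LDL, H19 differed by 0.72 in L2AKO cells and by -0.20 in WT cells (0.02 with no scaling), neither reaching 2-fold.

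Cdkn1c encodes p57, an inhibitor of cyclin-dependent kinases that halts the cell cycle and restrains fetal growth. Its probe read -3.45 in L2AKO LDL and -4.26 in L2AKO control, the second of which was not above background, against 1.36 in WT LDL and 1.38 in WT control. The raw signals were 39.7 and 20.3 in L2AKO cells, against 954 and 830 in WT cells. The WT arrays were bright and close to each other, while the L2AKO arrays were dim. Cdkn1c was at least 49.9-fold lower in L2AKO cells without LDL and 28.2-fold lower with LDL (log2 difference -4.82), where 0.155% of measured genes lay below it, although the log2 difference was -3.37 after normexp and -3.74 in the authors' deposited table. With LDL it differed by -0.016 in WT cells, a value whose sign turned under other scalings, and in L2AKO cells it was at least 1.75-fold higher.

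Plagl1 encodes a zinc finger transcription factor, also called ZAC1, which in mouse regulates several other imprinted genes. The brighter of its 2 readable probes gave -1.89 in L2AKO LDL, -2.70 in L2AKO control, -2.58 in WT LDL and -2.59 in WT control. The other readable probe gave -2.67, -3.95, -3.40 and -3.70 in the same order of groups. On both probes L2AKO LDL was the highest of the 4 arrays, and L2AKO control was the lowest after scaling but WT control by raw signal. With LDL the reading in L2AKO cells was higher by 0.81 on the brighter probe and by 1.28 on the dimmer one, so the probes fell on different sides of 2-fold, and these 2 arrays lay on different slides. As the mean over all 4 probes, which includes the 2 that were never above background, this difference was 0.12, and the genotype difference with LDL was -0.13 in place of 0.69. The other 2 Plagl1 probes were below background on all 4 arrays.

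Mest, also called Peg1, encodes a protein of the alpha/beta hydrolase fold family that is linked to fat cell size in mice. The probe printed as 10 spots read -2.25 ± 0.096 in L2AKO LDL, -2.82 ± 0.14 in L2AKO control, -2.55 ± 0.084 in WT LDL and -3.81 ± 0.32 in WT control (SD over spots of 1 array). WT control stood below the other 3 arrays and was close to background there, with 9 of its 10 spots well above it. Its highest spot, at -3.41, lay under the lowest spot of L2AKO control, at -3.10. Mest was 2.39-fold higher with LDL in WT cells (log2 difference 1.26), above 99.9% of measured genes, and 1.49-fold higher with LDL in L2AKO cells (0.57). Without LDL it was 1.98-fold higher in L2AKO than in WT cells (0.98), just under 2-fold, and with LDL 1.23-fold higher (0.30). The LDL difference in WT cells was under 2-fold with normexp, in the authors' deposited table and as the mean over probes, at the lowest 0.48, and the genotype difference without LDL ran between 0.39 and 1.27 over the alternatives. A second Mest probe was above background on L2AKO LDL alone, at -3.75, and the last on none.

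**Figure D2:**
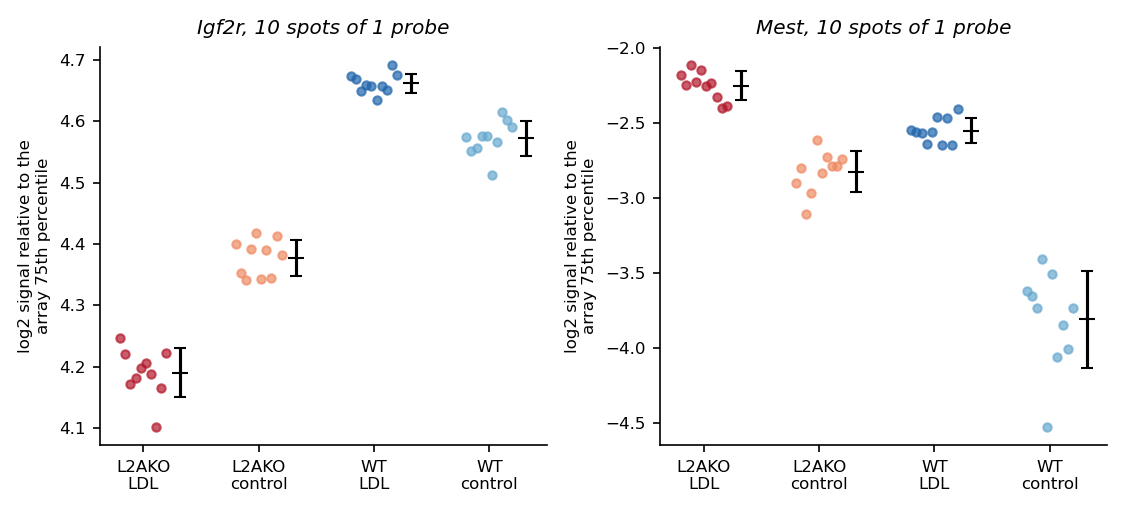
Single spots of the Igf2r and Mest probes, each printed 10 times on an array, with the vertical axis in log2 relative to the array's 75th percentile. Spots of Igf2r lie close together on each array, while those of Mest spread more widely where the signal is lowest, in WT control.

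Sgce encodes epsilon-sarcoglycan, a membrane protein of the complex that ties muscle cells to their matrix. It read 3.01 in L2AKO LDL, 2.78 in L2AKO control, 2.85 in WT LDL and 2.72 in WT control. The 4 arrays lay within 0.29 log2 units, the narrowest range of any gene among the 10 that was above background on all of them. Peg10, derived from a retrotransposon and needed for the mouse placenta, starts beside Sgce in the opposite direction. Its 2 probes read between -6.55 and -5.25, all below background. Peg3, a zinc finger gene known in mice for effects on growth and maternal behaviour, read between -7.31 and -4.36 on its 2 probes, also all below background, so neither gene has a measured difference here.

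Without LDL, 6 of the 10 genes could be measured in both genotypes, and in L2AKO cells 1 of these (Grb10) was higher by 2-fold or more and 1 (H19) was lower by that much. Over all 12594 measured genes, 7.56% passed 2-fold upward and 8.21% downward. Igf2 and Cdkn1c were also lower by their bounds. With LDL, 6 genes were measured, with 0 at least 2-fold higher, where the share over 12936 genes was 8.29%, and 2 at least 2-fold lower, H19 and Cdkn1c, where it was 10.4%. By bounds Grb10 was then higher and Igf2 lower. The median over the members was -0.02 without and -0.16 with LDL, against -0.01 and -0.05 over all measured genes. The members that passed 2-fold thus did not shift one way: Igf2 (paternal) and H19 and Cdkn1c (maternal) were lower, and Grb10 (maternal) was higher. With only 1 paternal gene among them, and Peg3 and Peg10 below background, a pattern by parental class could not be judged.

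**Figure D3:**
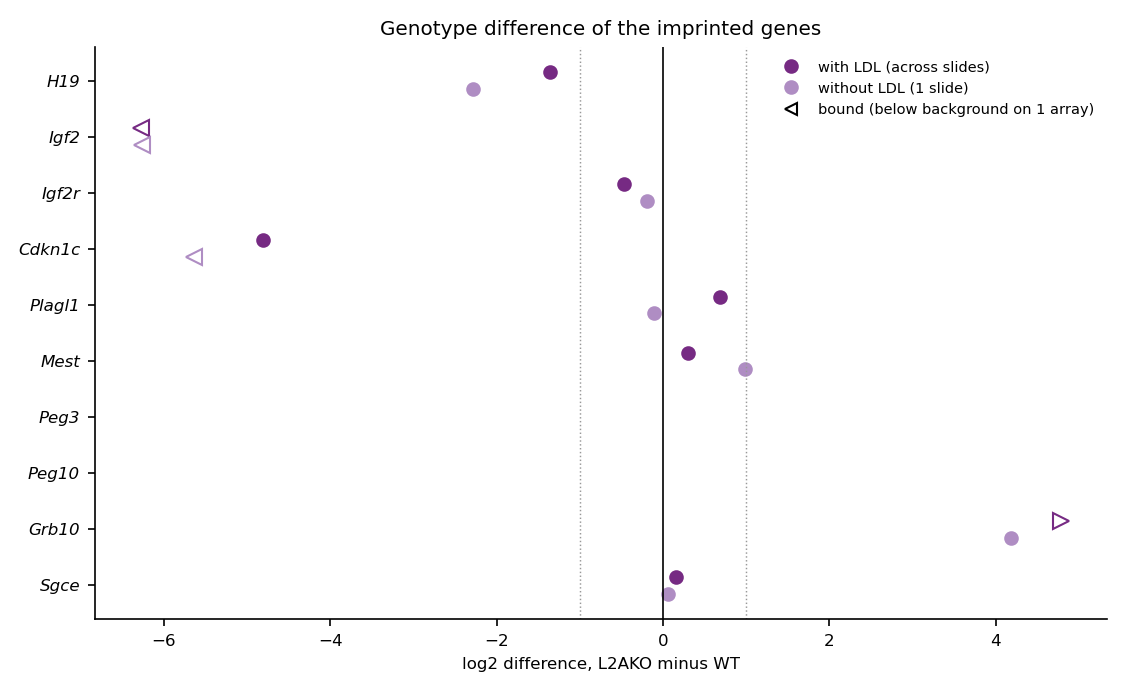
Difference between L2AKO and WT cells for each gene, with and without LDL, in log2 units on the horizontal axis. Triangles are bounds where the dimmer array was below background, and dotted lines mark 2-fold. Igf2, Cdkn1c and H19 lie left of 0 and Grb10 right of it under both conditions.

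LDL was compared with control in each genotype. In WT cells 7 genes were measured, of which 1, Mest, was at least 2-fold higher, against 0.247% of 12978 genes, and 0 at least 2-fold lower, against 1.02%. The other 6 differences lay between -0.61 (Igf2) and 0.13 (Sgce). In L2AKO cells 6 genes were measured and 0 reached 2-fold in either direction, against 0.93% of 13008 genes higher and 1.33% lower. Plagl1 (0.81), H19 (0.72) and Mest (0.57) were in the upper tail, above 98.5%, 97.9% and 96.5% of genes, while Sgce differed by 0.23, Grb10 by -0.15 and Igf2r by -0.19. Over the alternatives Plagl1 fell as low as 0.12 and Mest 0.24, while H19 stayed between 0.72 and 0.88. These L2AKO values cross slides. Spike-in controls on L2AKO LDL deviated by -1.17 to 0.63 log2 units from their mean on the other arrays. The difference between the 2 responses, L2AKO minus WT, could be formed for 5 genes and was 0.92 for H19, 0.80 for Plagl1 (-0.00046 as the mean over its probes), 0.09 for Sgce, -0.28 for Igf2r and -0.69 for Mest. None of these reached 2-fold, which 1.39% of 12492 genes did upward and 0.72% downward.

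**Figure D4:**
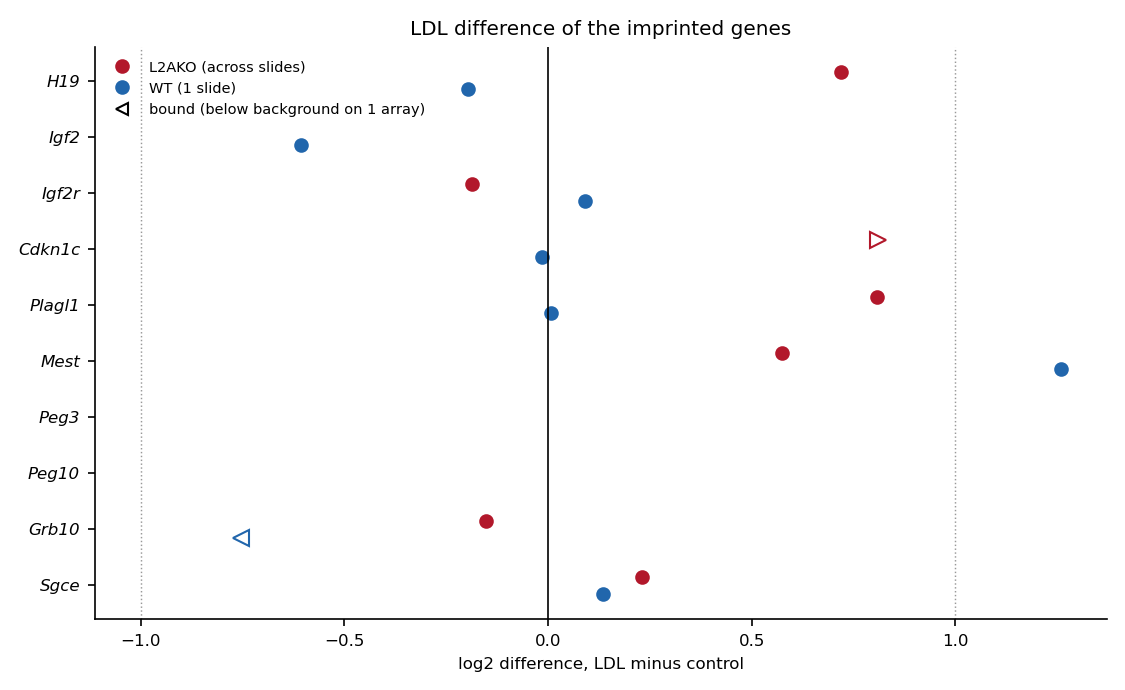
Difference between LDL and control for each gene in L2AKO and in WT cells, in log2 units on the horizontal axis. The L2AKO values cross slides and the WT values do not. Mest in WT cells is the only point past the dotted 2-fold line.

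H19, Igf2 and Cdkn1c lie in 1 stretch of chromosome 7, which holds the H19-Igf2 domain and, beyond it, the domain controlled from Kcnq1ot1. The 23 genes on the arrays from H19 to Osbpl5 were read in gene order, a stretch chosen after the values had been seen. Leaving out these 3 members, 14 of the other 20 were measured without LDL, of which 5 were at least 2-fold lower in L2AKO cells and 0 higher, and 2 more were lower by bounds. Those 5 were Ascl2 (-2.61), a placental transcription factor, Tnfrsf22 (-1.41), Tnfrsf23 (-1.35), Cars (-1.16), which charges tRNA with cysteine, and Tssc4 (-1.04). Igf2os, which overlaps Igf2 on the other strand, was at least 57.9-fold lower and Tnfrsf26 at least 4.40-fold lower. Igf2os had levels of -6.27 and -6.46 in L2AKO LDL and L2AKO control, against 1.07 and 1.41 in WT LDL and WT control.

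Leaving out the members, the median over measured genes of the stretch was -0.56 without and -0.51 with LDL. Some genes of the stretch differed little or were higher. Without LDL, Th differed by -0.051, Tspan32 by 0.15 and Kcnq1ot1 by -0.11, and Slc22a18, an organic cation carrier, read 0.89 higher without and 1.03 higher with LDL. With LDL 6 of 14 measured neighbours were lower, 1 was higher and 2 were lower by bounds. Chromosome 7 as a whole also leaned that way, with a median of -0.32 over 981 genes without LDL and -0.35 over 1024 genes with LDL, and 9.89% and 13.5% of its genes were at least 2-fold lower, against the 8.21% and 10.4% over all genes. The other chromosomes that carry members, 6, 10, 11 and 17, had medians of 0.07, -0.05, 0.04 and 0.22 without LDL. With the chromosome's median subtracted, the genotype difference of H19 was -1.96 without and -1.01 with LDL, and that of Cdkn1c was -4.47 with LDL. The median is small beside these differences, so subtracting it could not have removed them. The part of a lean of the whole chromosome was not tested.

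**Figure D5:**
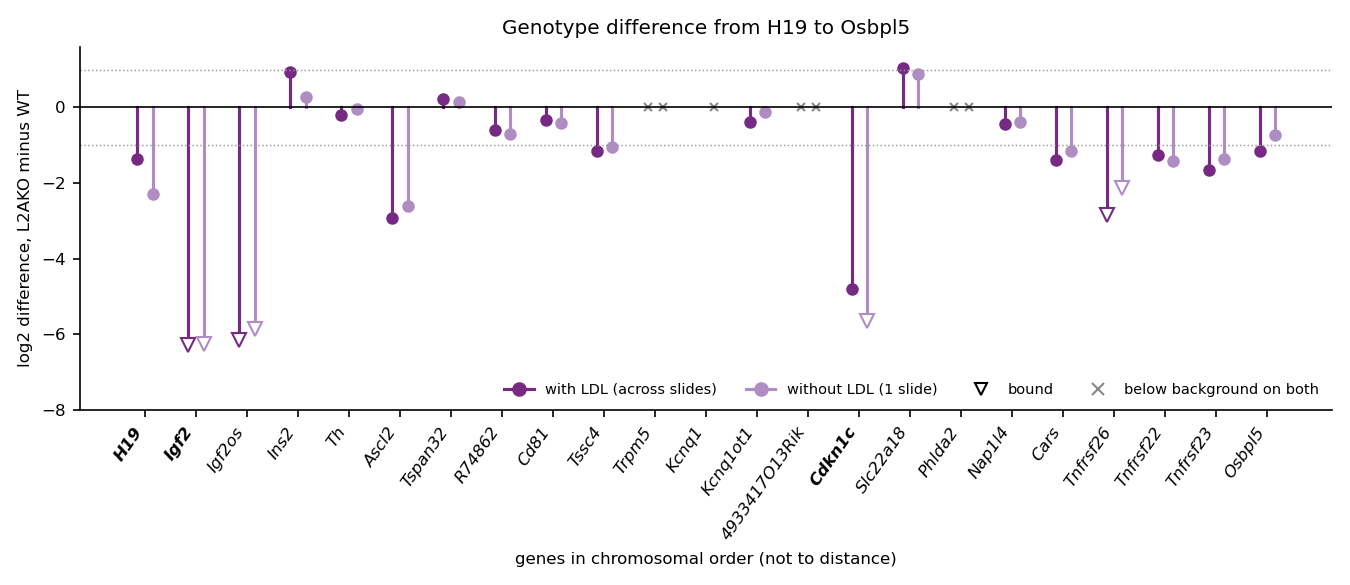
Genotype difference, L2AKO minus WT in log2 units, for the 23 genes from H19 to Osbpl5 in gene order and not to distance. Darker symbols are with LDL and lighter ones without, open triangles are bounds and crosses mark genes below background in both genotypes. The members H19, Igf2 and Cdkn1c, in bold, reach lower than most genes between them.

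Around the other members, the nearest 8 genes on each side were read in the same way. For comparison, 7.56% of all measured genes were at least 2-fold higher without LDL and 8.21% lower. Beside Grb10, 6 of 16 neighbours were measured without LDL, with 2 higher, including Cobl (1.43), and 2 lower, including Fignl1 (-2.69). Beside Sgce, 7 of 16 neighbours were measured without LDL and 0 differed 2-fold. By bounds, on the same side of Sgce, the imprinted neuronal scaffold gene Ppp1r9a was at least 34.7-fold lower in L2AKO cells without LDL, and Dync1i1, a dynein chain, was at least 19.3-fold higher. Beside Igf2r, 9 of 16 neighbours were measured and 0 differed 2-fold. Beside Peg3, also on chromosome 7, 6 of 16 neighbours were measured, with 0 higher and 2 lower, the zinc finger genes Zfp773 (-1.56) and Zfp772 (-1.75), and a median of -0.44. Beside Mest, 8 were measured, with 1 higher and 1 lower and a median of 0.05.

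Of 52 other imprinted genes with probes, 33 were measured without LDL, with a median of -0.10. In L2AKO cells 3 of these were higher and 5 lower by 2-fold or more, against 7.56% and 8.21% over all measured genes. Apart from Ascl2, the widest were Qpct (2.00), an enzyme that forms pyroglutamate, Ndn (1.83), a growth-restraining gene of the Prader-Willi domain, and Dcn (-1.69), the matrix proteoglycan decorin. Slc38a4, an amino acid carrier, was higher by at least 8.89-fold, and Ppp1r9a, a neighbour of Sgce, was lower by at least 34.7-fold. Another 15 were below background in both genotypes. With LDL 0 of the measured ones differed 2-fold in either genotype, against at most 1.33% of all measured genes in either direction.

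Of 20 genes on a list of IGF2 partners, 16 were measured without LDL, with a median of 0.56. In L2AKO cells 5 of them were higher and 2 lower by 2-fold or more, against 7.56% and 8.21% over all measured genes. Among the IGF-binding proteins, which hold IGFs in the fluid outside cells, Igfbp3 was higher (3.12), whereas Igfbp2 (-3.52) and Igfbp4 (-1.92) were lower. Igfbp2 read -0.23 and -0.25 in L2AKO LDL and L2AKO control, against 3.30 and 3.27 in WT LDL and WT control. Igf2bp2, which binds Igf2 mRNA, was higher (1.47). Igfbp5 was lower by a bound of at least 10.6-fold. With LDL the counts were again 5 and 2, against 8.29% and 10.4% over all measured genes. Igf1r, the receptor through which IGF2 signals, was named for that role after its values were seen: it read 3.55 and 3.67 in L2AKO LDL and L2AKO control, against 4.42 and 4.16 in WT LDL and WT control, lower on both L2AKO arrays by less than 2-fold.

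Of 20 factors that place or keep imprints, 18 were measured, with 1 higher and 2 lower by 2-fold or more without LDL. This was 16.7% of those measured, against 7.56% higher and 8.21% lower over all genes. Uhrf1, which brings the maintenance methyltransferase to replicating DNA, was lower (-2.36), as was that enzyme, Dnmt1 (-1.13), and the chromatin factor Arid4a was higher (1.51). Of 7 CDK inhibitors, 6 were measured without LDL and Cdkn2d alone reached 2-fold (-1.17), besides the bound on Cdkn1c. All 17 measured genes of an 18-gene proliferation list were at least 2-fold lower in L2AKO cells, with a median of -3.07 without and -2.75 with LDL, including Nusap1 (-3.71), Prc1 (-3.55), Ccnb1 (-3.52) and Plk1 (-3.42). Uhrf1 and Dnmt1 are also known to rise in dividing cells, and the part of proliferation in the member differences was not tested.

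Markers of other cell types also differed between the genotypes. The summed signal of 8 mesothelial and epithelial markers, in multiples of the array's 75th percentile, was 21.1 in L2AKO LDL and 18.3 in L2AKO control, against 59.0 in WT LDL and 63.7 in WT control. Of these 8, 6 or 7 were above background on each array. For the marker counts here, 7.56% of all measured genes were at least 2-fold higher in L2AKO cells without LDL and 8.21% lower. Without LDL 6 of these 8 markers were measured in both genotypes. In L2AKO cells 4 of them were at least 2-fold lower, Cdh1 (-3.14), Msln (-2.31), Krt18 (-1.90) and Krt19 (-1.62). Upk3b was higher (1.17), and Wt1 differed by less than 2-fold (-0.93). Epcam was lower by a bound of at least 2.51-fold. The sum over 8 smooth muscle markers was 136 and 141 in L2AKO cells with and without LDL, against 176 and 200 in WT cells. Acta2, the brightest of them, was lower by less than 2-fold without LDL (-0.75), as was Smtn (-0.995). Among the 5 measured, Tagln (1.27) and Cnn1 (1.11) were at least 2-fold higher in L2AKO cells and Actg2 (-1.73) lower. For 9 fibroblast markers the sum was 496 and 490 in L2AKO cells, against 442 and 514 in WT cells. These similar fibroblast sums hold opposite differences, since without LDL 3 of 8 measured markers were at least 2-fold higher in L2AKO cells, Col3a1 (6.15), Serpinf1 (4.28) and Pi16 (4.14), and 2 lower, Dcn (-1.69) and Lum (-1.03). Sums over 6 macrophage markers ran between 32.6 and 51.1 and those over 6 endothelial markers between 4.51 and 5.73, with Cdh5, Tie1 and Tek below background on all 4 arrays, as were Adgre1 and Ptprc. Of 4 macrophage markers measured without LDL, Cd68 was at least 2-fold higher in L2AKO cells (1.85). Csf1r, Cd14 and Itgam differed by less than 2-fold. The part of cell makeup in the differences of Igf2, H19, Cdkn1c and Grb10 was not tested.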

How the data were processed

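Total RNA was labelled with Cy3 and hybridised to Agilent mouse 8x60K arrays, 1 array for each of 4 groups. The deposited scanner files hold a spot intensity on a linear scale, which Agilent software (Feature Extraction 10.7.3.1) had background-subtracted, per the file headers. The authors' deposited table holds a linear signal with column medians of 57.4 for L2AKO LDL, 57.5 for L2AKO control, and 57.6 for WT LDL and WT control, whose scaling step is not known. RMA and oligo are listed, per the submitters' processing notes.

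Control and outlier spots were left out, repeated spots were averaged on the log2 scale, and the 75th percentile of each array was subtracted. Probes were named through RefSeq accessions and a GRCm38.p6 gene table: 28330 matched 1 gene and 27349 stayed unnamed. A gene is given by its probe with the highest mean, and counts as measured where all arrays compared were well above background. Repeated spots gave a median SD of at most 0.054, 0.076 for a difference of 2 spots, which covers technical spread only. With 1 array per group no test was run.

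The members and the gene lists were chosen with earlier results of these data known. They comprise other imprinted genes, IGF2 axis partners, imprint maintenance factors, CDK inhibitors, proliferation genes and 5 lists of cell type markers. All probes of the members are named, with Lamp2 and up to 4 genes per list with the largest differences of at least 2-fold without LDL, measured on all 4 arrays. For the 3 members of widest range, the 3 genes nearest over the 4 arrays are also named. Genes named as neighbours, those with bounds and Igf1r were chosen after their values were seen.

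The alternatives were 4 other scalings, the mean over probes, 3 other filters for dim signal, the values of the authors' deposited table, and normexp (offset 50) followed by quantile normalisation. Subtraction of the chromosome median and the counting of bounds were added after seeing the data. The steps were tested on simulated data. Tools were Python 3.11.15 (pandas 2.3.3, numpy 2.4.6, matplotlib 3.10.9) and limma 3.58.1 in R 4.3.3.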

Additional observations from a re-analysis of the deposited data

Results flagged for a closer look

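H19 moved in opposite directions with LDL in the 2 genotypes, by 0.72 log2 units in L2AKO cells and by -0.20 in WT cells. With no scaling between arrays the WT value was 0.02. With 1 array per group the difference was not tested, and the L2AKO value crosses slides. Among the members it was the widest difference between responses, and 98.3% of measured genes lay below it.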

How the results depend on the processing

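No paired analysis was possible because each group had 1 array. None of the 5 member differences of at least 2-fold changed sign. H19 and Mest had 11 alternatives, and Cdkn1c with LDL and Grb10 without LDL had 10 that gave a value. Part of this was fixed in advance, because the filters for dim signal leave a value as it is. For H19, Cdkn1c and Grb10, with a single probe each, the mean over probes does so too. H19 without LDL stayed between -2.28 and -1.96 and with LDL between -1.36 and -1.01, Grb10 without LDL between 2.52 and 4.47, Cdkn1c with LDL between -4.82 and -3.37, and Mest with LDL in WT cells between 0.48 and 1.48. Mest without LDL between genotypes ran between 0.39 and 1.27.

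Counts of members at 2-fold moved as follows. Higher in L2AKO cells without LDL, 1 as reported, became 2 under median scaling, the 75th percentile of detected probes, quantile normalisation, no scaling and no filter on dim probes, and 0 when all 4 arrays had to be above background. Lower in L2AKO cells without LDL, 1 as reported, became 4 without a filter, and 3 with a filter on 1 array or with bounds counted. Higher with LDL, 0 as reported, became 1 without a filter, with a filter on 1 array and with bounds counted. Lower with LDL, 2 as reported, became 4 without a filter, 3 with a filter on 1 array or with bounds counted, and 1 with all 4 arrays above background. The LDL response of Mest in WT cells fell under 2-fold, a count of 0 in place of 1, with normexp, with the authors' deposited values and with the mean over probes. The cause was not tested. Lower with LDL in WT cells became 1 without a filter and with a filter on 1 array. The difference of responses gave 1 higher in place of 0 under median scaling, no filter and a filter on 1 array, and 1 lower in place of 0 without a filter.

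Without scaling, the median over all genes without LDL was 0.28 in place of -0.01, and the share of 2-fold calls that were higher was 68.9% in place of 47.9%. With LDL that share was 44.4%, against 60.0% under median scaling and 62.0% without scaling. For LDL in WT cells it was 19.4%, against 42.6% without scaling and 8.79% with normexp, and for LDL in L2AKO cells 41.2%, against 55.7%, 53.6% and 60.9% under median scaling, detected probes and no scaling. For the difference of responses it was 65.9%, against 79.1% under median scaling and 85.3% with normexp. As the mean over its probes, Plagl1 with LDL was 0.12 in L2AKO cells in place of 0.81. Dim probes limit Plagl1 and Mest, and Igf2, Cdkn1c and Grb10 have bounds on some arrays.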

Other observations

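The genes whose 4 values, centred on their mean, lay nearest to a member were found among 12492 genes measured on all 4 arrays, as a description over 4 arrays. For H19 these were Eme1, a subunit of a DNA nuclease, at a Euclidean distance of 0.074 log2 units, the zinc finger gene Casz1 at 0.129 and Rph3al at 0.164. For Mest they were Necab3 at 0.167, Nhlh1 at 0.405 and Pheta2 at 0.418. For Plagl1 they were Cfap100 and Vps4a, both at 0.049, and AW551984 at 0.079. The ranges over the 4 arrays were 2.28 for H19, 1.56 for Mest and 0.81 for Plagl1.

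Near Plagl1, which differed little between genotypes without LDL, the genes Adat2 (1.86), Aig1 (1.72) and Hivep2 (1.79) were higher in L2AKO cells and Phactr2 (-1.13) was lower. These were the 4 at 2-fold among 14 measured of its 16 neighbours, named after their values were seen. Over all measured genes, 7.56% were that much higher without LDL and 8.21% lower.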
